A study of Mus with 51 samples.

Results

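CD4 T cells given an agonist peptide were separated after 24 h into a fraction with high and a fraction with low surface CD69, and the RNA of the 2 fractions was compared. The comparison used the 3 MCC CD69-hi and the 3 MCC CD69-lo libraries of 24 h, which are 6 of the 51 libraries of the series. They were taken by their peptide, sorting label and time, with earlier results of these data known. All cells came from lymph nodes of B10.A mice deficient in Rag2 and carrying the 5C.C7 T cell receptor (TCR) transgene, which recognises MCC, a peptide of moth cytochrome c. Rag2 is needed to assemble antigen receptors, so such mice are known to lack mature B cells and T cells with other receptors. Both fractions had received MCC and differ by the sort. By the well names in the labels, the CD69-hi libraries were in plate columns 2, 4 and 6 and the CD69-lo libraries in 5, 6 and 8. Set beside them are the MCC CD69-hi and CD69-lo libraries of 1 h (3 and 3) and 6 h (3 and 2). Also set beside them are 3 CD69-hi libraries of cells given MCC together with GP for 24 h (MCC+GP). Libraries of cells labelled as given no peptide (NP) number 3 at 1 h, 2 at 6 h and 3 at 24 h. NP below stands for those of 24 h unless another time is given. The labels give neither the age of the mice nor whether libraries of a group came from separate animals, so the p-values speak of the spread among these libraries, which may be technical.

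CD69 is a lectin-like receptor that T cells place on their surface soon after TCR signalling, where it holds the cell in the lymph node by removing the exit receptor S1PR1. TCR signalling first switches on immediate-early transcription factors such as Fos, Egr1 and Nr4a1, and then, if it is kept up, the cytokine IL-2, growth regulators such as Myc and Irf4, and the genes of ribosome production, metabolism and division. Resting T cells instead express Klf2 and its target S1pr1, which keep them circulating. The sort asks which of these programmes go with surface CD69 a day after the agonist was given.

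Poly-adenylated RNA was sequenced and counted per gene. The CD69-hi libraries held 7551281 to 8642984 counts and the CD69-lo libraries 941304, 2870776 and 1728809 (replicates 1, 2 and 3), so low values are less certain in CD69-lo. Replicates of CD69-hi had a Pearson's r of 0.993 to 0.994 across genes on the log2 scale, where genes are not independent replicates. For CD69-lo it was 0.936 between replicates 1 and 2 and 0.9 and 0.923 between these and replicate 3. CD69-lo replicate 3 stood apart: it had a count for 20079 genes, against 14090 and 17133 in the other CD69-lo libraries, and its level of the gene model Gm10800 was 1070 CPM, a unit of counts scaled to a common library total, against 6.61 and 8.75. This library was also the last by plate column, in column 8. Counts of calls without it are given beside the results it moves. Values below are CPM normalised with TMM (trimmed mean of M-values), and log2 fold changes are CD69-hi over CD69-lo ± SE. Adjusted p-values come from edgeR's quasi-likelihood test.

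Genes that define T cells were counted in both fractions. A list of 12 T cell identity genes summed to 10100, 10800 and 10600 plain CPM (counts over the library total) in CD69-hi, and to 11100, 11900 and 11900 in CD69-lo, both below the 14700 to 16100 of NP. Of these 12 genes 1 was called higher in CD69-hi and 5 lower (median log2 fold change -0.08), against 29.1% and 32.5% of all genes tested. Cd3e, a chain of the TCR complex, had 200, 207 and 203 CPM in CD69-hi, against 205, 171 and 160 in CD69-lo. Its log2 fold change of 0.20 ± 0.17 did not pass (adjusted p = 0.334) and turned to -0.04 with RLE (relative log expression) size factors. Cd4 had 353, 321 and 274 CPM in CD69-hi and 258, 332 and 468 in CD69-lo, with overlapping groups (-0.16 ± 0.19, adjusted p = 0.458). The difference was 0.09 without CD69-lo replicate 3 and passed, as lower in CD69-hi, with RLE size factors (-0.40), DESeq2 (-0.40) and the other-cell covariate described below (-0.74).

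Summed RNA of genes listed as markers of other cell types was higher in CD69-lo than in CD69-hi. B cell genes (20 on the list) summed to 269, 250 and 400 plain CPM in CD69-hi, against 953, 1390 and 1920 in CD69-lo and 739 to 1020 in NP. MHC class II presentation genes (13) summed to 126, 131 and 255 in CD69-hi, against 1360, 1640 and 1740 in CD69-lo and 288 to 696 in NP. No sum of a CD69-hi library reached that of a CD69-lo library for either list. Myeloid and dendritic genes (30) summed to 258, 240 and 444 in CD69-hi, against 2350, 1630 and 1690 in CD69-lo and 202 to 506 in NP. NK and CD8 T cell genes (12) summed to 24.0 to 29.7 in CD69-hi and 81.8 to 169 in CD69-lo, with 44.7 to 67.6 in NP. Genes of stroma, endothelium, erythroid cells and platelets (16) summed to 11.7 to 21.4 in CD69-hi and 322 to 701 in CD69-lo, and to 340 to 374 in NP, within the CD69-lo range. With 3 against 3 libraries an exact two-sided permutation test cannot give a p below 0.1, so no test was run on these sums. B cell and CD8 T cell genes thus had counts, although Rag2-deficient mice are known to lack mature B cells and T cells with other receptors. Of 114 immunoglobulin variable segments, counted after their values had been seen, 28 were lower in CD69-hi and none higher. Over all genes tested the shares were 32.5% and 29.1%. The source of this RNA was not tested.

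Of the myeloid and dendritic markers, 7 of 30 had no count in any CD69-hi library and 3 of 30 none in any CD69-lo library. Siglech, a marker of plasmacytoid dendritic cells, had no count in CD69-hi, against 64.2, 76.8 and 9.16 CPM in CD69-lo, at least 350-fold lower in CD69-hi (adjusted p = 1.24e-08). The bound sets 3 counts over the 3 CD69-hi libraries. S100a8, a neutrophil and monocyte gene, had none either, against 69.9, 25.9 and 21.4 CPM in CD69-lo. Of the 5 lists 18 of 20, 11 of 13, 22 of 29, 8 of 12 and 7 of 12 members tested were lower in CD69-hi, and none higher. Over all genes 32.5% were lower and 29.1% higher. The count of the last list, of stroma and blood cells, was 3 without CD69-lo replicate 3. In bulk RNA, fewer cells of a type, less RNA per cell and RNA of listed genes made by the T cells themselves cannot be told apart. A fit with the log2 sum of the 5 lists as a covariate was therefore added after the data had been seen, and calls it ends are named below. The sum itself separates the fractions, so in that fit the sort and the RNA of these marker genes are only partly told apart. Members of the 5 lists are part of the sum, so their own values in that fit are not independent of it. S100a8, such a member, lost its call there, at -7.83.

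**Figure D1:**
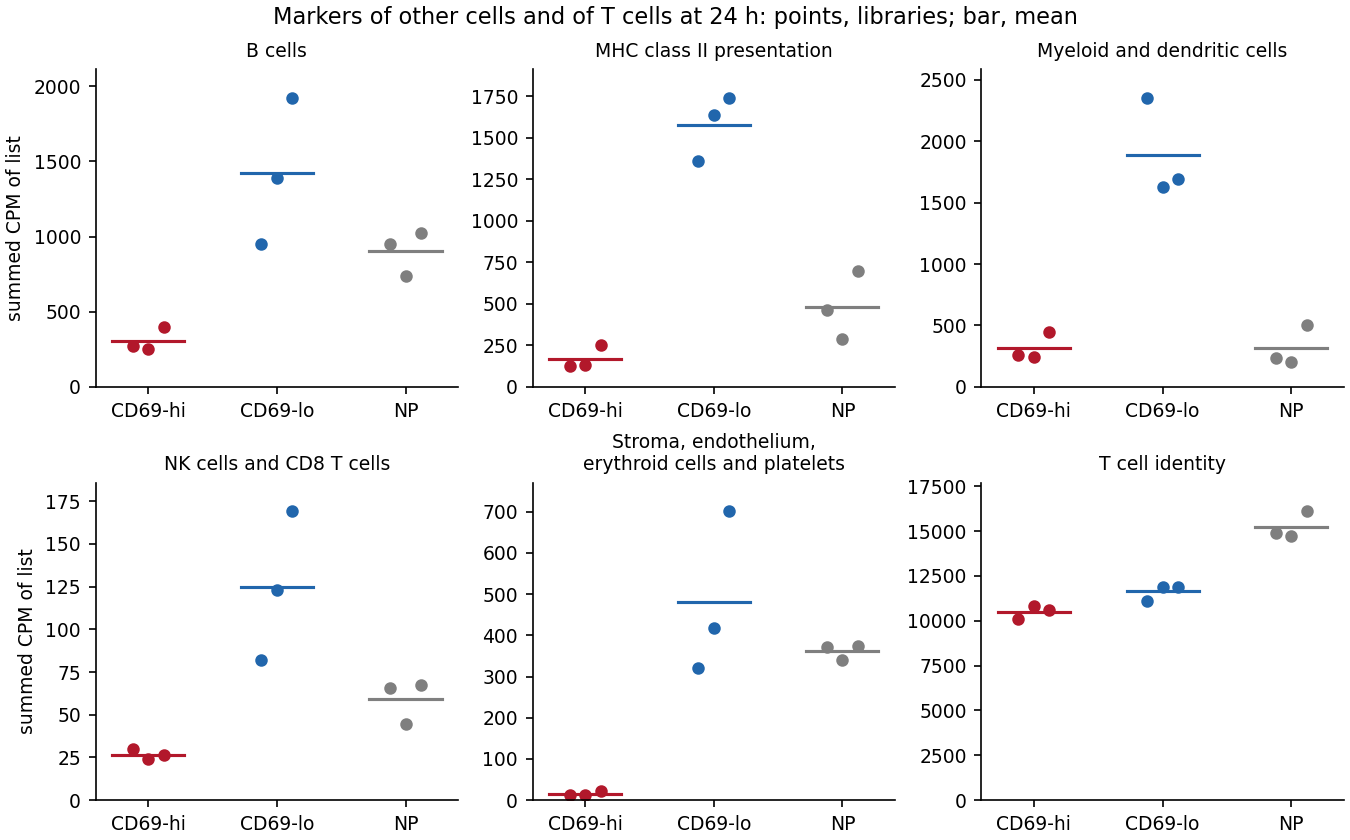
Summed plain CPM of the markers of 5 other cell classes and of T cell identity, by library at 24 h (points, libraries; bars, group means). Each other-cell sum is higher in all 3 CD69-lo libraries than in any CD69-hi library, while the T cell sums lie between 10100 and 11900 in both fractions.

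Across the transcriptome 17211 of 34923 features passed the filter on low counts, and 10613 of them (61.7%) differed between the fractions at an adjusted p under 0.05. Of these 5011 (29.1%) were higher in CD69-hi and 5602 (32.5%) lower. All 3 CD69-hi libraries stood above all 3 CD69-lo libraries for 5655 genes (32.9%) and below them for 4071 (23.7%). The median log2 fold change over all genes was -0.20, and RLE size factors moved it by -0.23, so small differences lean on the scaling. Without CD69-lo replicate 3 there were 9301 calls, 4731 higher and 4570 lower, of which 8883 were among the calls above. With the other-cell covariate there were 6949, 3851 higher and 3098 lower, and 6568 of them were called in the same direction above. Most genes thus differed, and counts within a list are to be read against these shares.

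**Figure D2:**
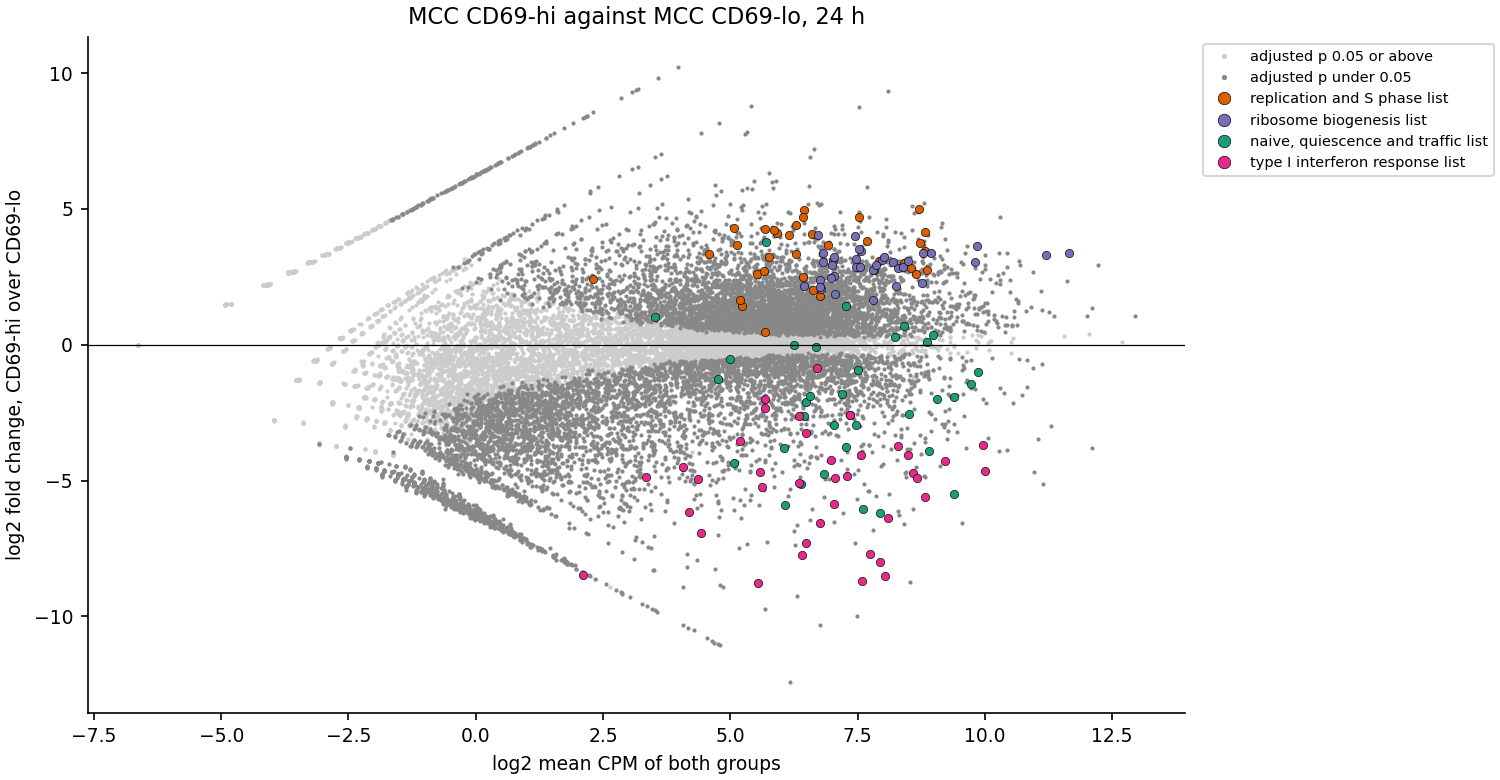
Log2 fold change of CD69-hi over CD69-lo against log2 mean CPM for the 17211 genes tested (dark grey, adjusted p under 0.05), with 4 lists in colour. The outermost straight lines of points are genes with no count in 1 fraction. Replication and ribosome biogenesis genes lie above 0, and interferon response genes below it.

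The gene of the sorted marker did not follow the sort. Cd69 (mm10 chromosome 6, 129267324 to 129275375) had 193, 218 and 214 CPM in CD69-hi, against 292, 278 and 298 in CD69-lo and a mean of 23.4 in NP. Every CD69-hi library was below every CD69-lo library, but the difference of -0.47 ± 0.45 missed the threshold when the spread was shared over 51 libraries (adjusted p = 0.368). Fitted on the groups compared alone it was -0.50 and passed, and over the alternatives the adjusted p ran from 0.00298 to 0.547. Cd69 RNA in both fractions was above the highest NP library, at 54.9 CPM.

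Immediate-early genes were split between the fractions. Of 32 early TCR response genes 13 were higher in CD69-hi and 11 lower (median log2 fold change 0.05, against -0.20 over all genes). Over all genes tested 29.1% were higher and 32.5% lower, so a split in both directions is not particular to this list. The lower count was 7 without CD69-lo replicate 2. Fosb, a subunit of the transcription factor AP-1, had 5.63, 4.6 and 1.9 CPM in CD69-hi, against 226, 181 and 473 in CD69-lo (-6.18 ± 0.60, adjusted p = 5.58e-11). Fos, a gene of the same family, had 11, 9.19 and 5.85 CPM in CD69-hi, against 117, 94.9 and 320 in CD69-lo (-4.36 ± 0.71, adjusted p = 2.75e-06). For both genes the CD69-hi libraries lay within the NP range (0.753 to 8.64 CPM for Fosb and 3.8 to 49.5 for Fos), and CD69-lo replicate 3 was the highest. Egr1, an early zinc finger factor, had 61.4, 94.1 and 75.4 CPM in CD69-hi, against 780, 732 and 960 in CD69-lo (-3.42 ± 0.80, adjusted p = 0.000421). Egr3 was lower in CD69-hi as well (-2.43 ± 0.46, adjusted p = 2.79e-05), and its groups did not overlap. Egr2 had 51.1, 80.8 and 75 CPM in CD69-hi and 134, 116 and 99.7 in CD69-lo, which passed only with the 2 fractions alone in the fit (-0.75 ± 0.48, adjusted p = 0.171). Jun and the MAP kinase phosphatase gene Dusp1 were lower in CD69-hi (-2.57 ± 0.63 and -2.30 ± 0.52). With the other-cell covariate they were at -1.85 ± 1.06 and -1.62 ± 0.83 and missed the threshold.

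The orphan nuclear receptors Nr4a1 (Nur77) and Nr4a3, widely used as reporters of TCR signalling, were also lower in CD69-hi. Nr4a1 had 307, 312 and 234 CPM in CD69-hi, against 772, 743 and 448 in CD69-lo and 4.14 to 39.6 in NP (-1.20 ± 0.48, adjusted p = 0.029). Nr4a3 had 234, 241 and 210 CPM in CD69-hi, against 380, 386 and 304 in CD69-lo (-0.64 ± 0.28, adjusted p = 0.0478). The groups did not overlap for either gene. The call of Nr4a1 was lost without CD69-hi replicate 3, without CD69-lo replicate 1 or 2, and with no filter on low counts, and its log2 fold change was -2.29 with the other-cell covariate (adjusted p over the alternatives 0.000171 to 0.086). That of Nr4a3 was lost with no filter and in 5 of the 6 fits that left out 1 library.

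Other genes of the same list were higher in CD69-hi. Irf4, a factor that drives effector differentiation, had 1030, 1200 and 1310 CPM in CD69-hi, against 234, 182 and 149 in CD69-lo and a mean of 12 in NP (2.66 ± 0.24, adjusted p = 3.75e-13). Myc, a driver of cell growth, had 745, 860 and 846 CPM in CD69-hi, against 170, 209 and 117 in CD69-lo and 59.8 in NP (2.30 ± 0.24, adjusted p = 1.75e-11). Each library of either fraction was above the highest NP library, at 14.5 CPM for Irf4 and 68.8 for Myc, with no overlap between the fractions. Spry1, an inhibitor of the Ras-ERK pathway, had 199, 221 and 179 CPM in CD69-hi, against 0.945, 1.3 and 1.53 in CD69-lo (7.22 ± 0.63). The ERK phosphatase gene Dusp4 had 225, 196 and 188 CPM in CD69-hi, against 0, 6.48 and 7.12 in CD69-lo (5.22 ± 0.33). Dusp6 (3.04 ± 0.42), Bhlhe40 (2.83 ± 0.39) and the AP-1 family genes Fosl1 (3.22 ± 0.38) and Batf (1.86 ± 0.32) were higher in CD69-hi too, while Fos, Fosb and Jun were lower.

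**Figure D3:**
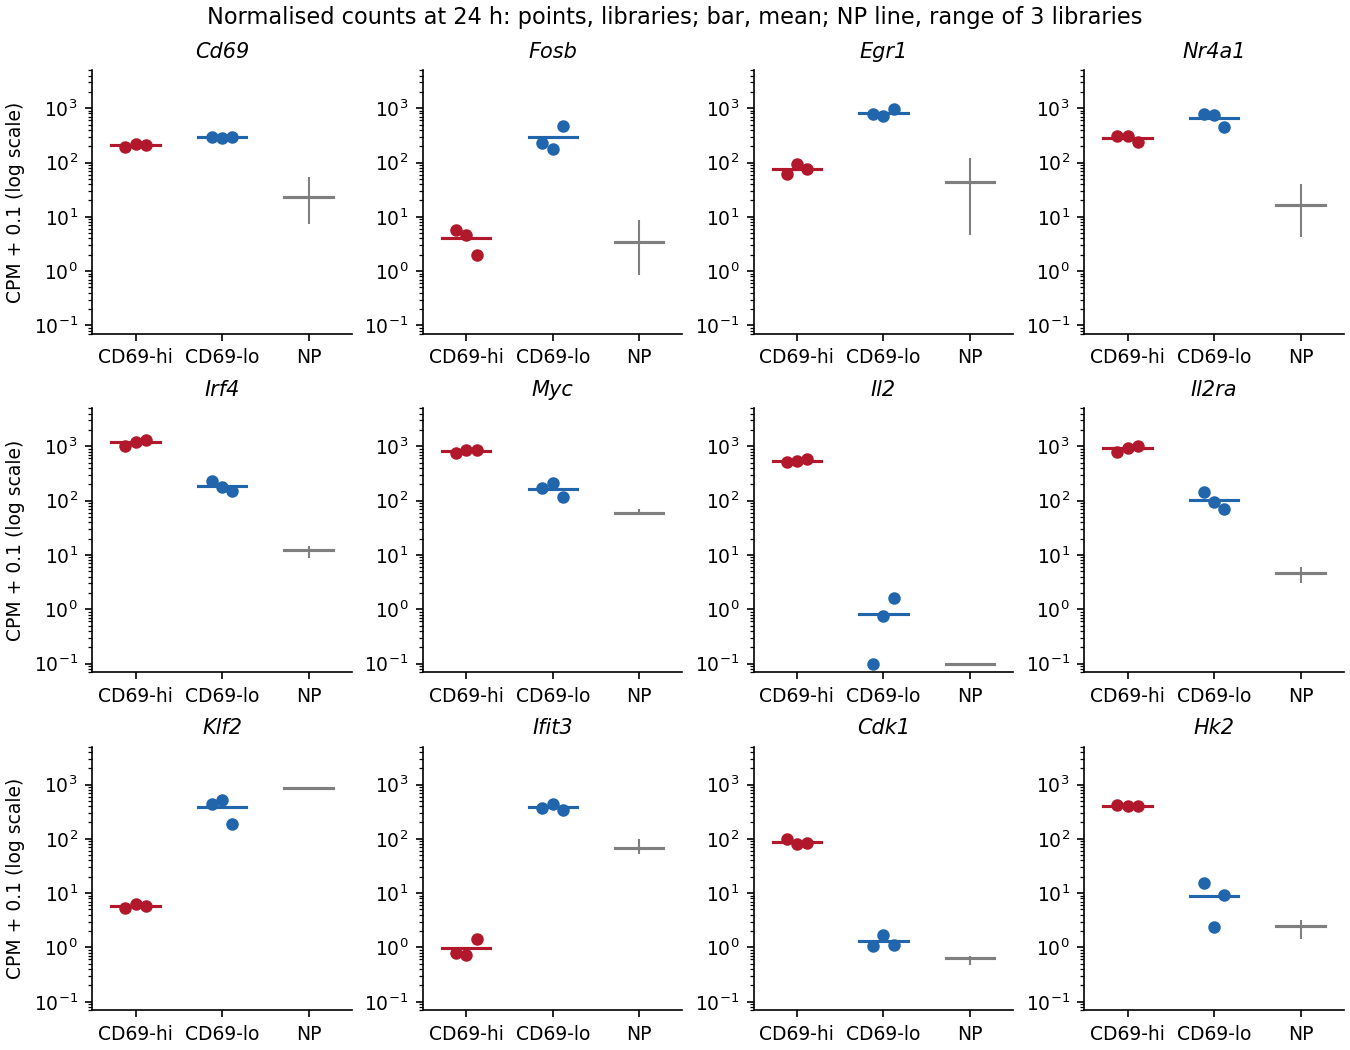
Normalised CPM (plus 0.1, log axis) of 12 genes in the 3 CD69-hi and 3 CD69-lo libraries (points, with group means) and the mean and range of the 3 NP libraries at 24 h. Fosb, Egr1, Nr4a1, Klf2 and Ifit3 are lower in every CD69-hi library, and Irf4, Myc, Il2, Il2ra, Cdk1 and Hk2 higher.

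Il2, the T cell growth factor gene, was almost confined to CD69-hi among these libraries. Il2 (mm10 chromosome 3, 37120713 to 37125954) had 518, 534 and 585 CPM in CD69-hi, against 0, 0.648 and 1.53 in CD69-lo and no count in NP (9.34 ± 0.63, adjusted p = 8.03e-14). Il3, a growth factor for myeloid cells, had 33.8, 28.2 and 31.8 CPM in CD69-hi and no count in CD69-lo, at least 63.8-fold higher in CD69-hi. Il21, a helper cytokine for B cells, had 8.87, 9.65 and 35.6 CPM in CD69-hi and none in CD69-lo, at least 36.9-fold higher, a bound of 18.9-fold without CD69-hi replicate 3 and a call that DESeq2 did not make. Tnfsf11, which encodes RANKL, had 268, 203 and 151 CPM in CD69-hi, against 11.3, 5.51 and 3.05 in CD69-lo. The chemokine gene Ccl4 had 161, 172 and 172 CPM in CD69-hi, against 8.5, 8.1 and 6.11 in CD69-lo (4.48 ± 0.48), and Ccl3 was higher too (3.59 ± 0.64, and 5.73 without CD69-lo replicate 3, which had 41.7 CPM against 10.4 and 1.3).

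Not every cytokine gene went this way. Of 26 effector cytokine and chemokine genes tested 11 were higher in CD69-hi and 8 lower (median 0.70), against 29.1% and 32.5% of all genes. Under the other-cell covariate 4 were lower. Ltb, which encodes lymphotoxin beta, had 37.2, 53.3 and 36.7 CPM in CD69-hi, against 472, 512 and 328 in CD69-lo and a mean of 531 in NP (-3.37 ± 0.23). Ifng had 3.66, 2.91 and 13.2 CPM in CD69-hi and 7.56, 13.3 and 72.8 in CD69-lo, with overlapping groups (-2.25 ± 1.03, adjusted p = 0.0597). It passed as lower in CD69-hi in 5 of 14 alternatives, with RLE size factors at -2.51 among them, and was 0.41 with the other-cell covariate. Tnf had 62.7, 97 and 86 CPM in CD69-hi and 55.7, 57.3 and 63.1 in CD69-lo (0.48 ± 0.47, adjusted p = 0.382). Il22 had 7.18, 4.14 and 5.58 CPM in CD69-hi, against 115, 23.3 and 21.4 in CD69-lo (-3.16 ± 1.29, adjusted p = 0.0377). That call was lost in 8 of 14 alternatives, and the difference was 4.64 with the covariate.

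Within the IL-2 receptor pathway the chain that makes the receptor sensitive was higher in CD69-hi and feedback inhibitors were lower. Il2ra, the alpha chain CD25, had 800, 916 and 1030 CPM in CD69-hi, against 144, 93.3 and 70.7 in CD69-lo and 3.01 to 5.92 in NP (3.19 ± 0.37, adjusted p = 3.12e-09). Stat5a, which carries the receptor's signal, was higher by 1.28 ± 0.17, and Il2rb by 0.87 ± 0.38, a call lost in 10 of 14 alternatives. Bcl2l1, which encodes the survival protein Bcl-xL, had 403, 405 and 384 CPM in CD69-hi, against 70.8, 24 and 42.7 in CD69-lo (3.22 ± 0.25). Socs3, a suppressor of cytokine signalling, had 21.7, 21.6 and 32.8 CPM in CD69-hi, against 724, 897 and 374 in CD69-lo and a mean of 377 in NP (-4.71 ± 0.45, adjusted p = 4.27e-11). Socs1 had 28.9, 47 and 58.2 CPM in CD69-hi, against 419, 351 and 40.7 in CD69-lo, so CD69-lo replicate 3 lay within the CD69-hi range (-2.58 ± 0.58). Bcl2 showed the same split, with 68.3, 71.7 and 73.1 CPM in CD69-hi and 374, 287 and 51.9 in CD69-lo (-1.72 ± 0.33). The calls of Socs1 and Bcl2 were lost with only the 2 fractions in the fit, and that of Socs2, lower in CD69-hi by -3.91 ± 0.49, with the covariate, where it was -1.14. Of the 19 genes of this pathway 6 were higher in CD69-hi and 11 lower (median -0.71), against 29.1% and 32.5% of all genes.

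Among receptors that stimulate or restrain T cells more were higher in CD69-hi than lower. Of 21 costimulatory and activation receptor genes 12 were higher and 5 lower (median 1.02), and of 24 inhibitory receptor and anergy genes 11 were higher and 3 lower (median 0.40, with 6 lower under RLE size factors). The shares over all genes tested were 29.1% higher and 32.5% lower. Tfrc, the transferrin receptor that brings in iron, had 1220, 1010 and 1060 CPM in CD69-hi, against 54.8, 53.8 and 38.7 in CD69-lo and a mean of 40 in NP (4.49 ± 0.31). Tnfrsf4 (OX40) had 260, 199 and 256 CPM in CD69-hi, against 8.5, 19.1 and 10.7 in CD69-lo (4.10 ± 0.25). Tnfrsf9 (4-1BB) had 72.4, 51 and 58.6 CPM in CD69-hi, against 17.9, 9.07 and 9.67 in CD69-lo (2.44 ± 0.57, adjusted p = 0.000395). With the covariate it was 2.11, with a wider SE of 1.0, and missed the threshold. The adhesion receptor gene Cd44 (2.69 ± 0.42, and 4.93 with the covariate) and Cd28 (2.46 ± 0.22) were higher as well.

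The checkpoint receptor genes Pdcd1 (PD-1) and Lag3 were low in CD69-lo. Pdcd1 had 144, 153 and 120 CPM in CD69-hi, against 10.4, 2.92 and 4.07 in CD69-lo (4.87 ± 0.49). Lag3 had 233, 223 and 233 CPM in CD69-hi, against 17, 23 and 9.16 in CD69-lo and a mean of 0.253 in NP (3.77 ± 0.42, adjusted p = 9.6e-10). Cd5, a receptor that dampens TCR signals, had 538, 574 and 589 CPM in CD69-hi, against 52.9, 28.5 and 20.9 in CD69-lo, near the NP mean of 39.2 (4.15 ± 0.36, adjusted p = 3.47e-12). Cd200 (4.62 ± 0.31), Cd6 (3.60 ± 0.26) and Ctla4 (2.85 ± 0.28) were higher in CD69-hi in every library. Dgka, whose product uses up diacylglycerol and so damps TCR signals, went the other way, with 105, 122 and 87.6 CPM in CD69-hi, against 1110, 1560 and 1740 in CD69-lo and a mean of 2490 in NP (-3.81 ± 0.18).

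Genes of the TCR complex and its first signalling steps went both ways. Of 26 such genes 5 were higher in CD69-hi and 11 lower (median -0.17), against 29.1% and 32.5% of all genes. Rasgrp1, which links diacylglycerol to Ras, had 74.3, 66.2 and 64.1 CPM in CD69-hi, against 954, 534 and 274 in CD69-lo (-3.09 ± 0.22). The kinase gene Prkcq (-2.59 ± 0.21) and the phospholipase gene Plcg1 (-1.74 ± 0.16) were lower in CD69-hi, and so was Cd3g (-1.24 ± 0.23). Trac, the constant region of the TCR alpha chain, was higher (1.06 ± 0.16), as were the kinase gene Zap70 (1.18 ± 0.26) and the NF-kB adaptor gene Malt1 (1.03 ± 0.20). With the covariate Trac was at 0.59 and Zap70 at 0.10, and both calls were lost.

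Genes of resting, circulating T cells were low in CD69-hi, and in CD69-lo nearer to the NP level. Of 34 genes of the naive state, quiescence and traffic 24 were lower in CD69-hi and 4 higher (median -1.96). The shares over all genes tested were 32.5% and 29.1%. The lower counts were 24 without CD69-lo replicate 3 and 26 with the covariate. Klf2, the factor that maintains quiescence and exit from the lymph node (mm10 chromosome 8, 72319062 to 72321654), had 5.21, 6.28 and 5.71 CPM in CD69-hi, against 435, 529 and 189 in CD69-lo and a mean of 865 in NP (-6.06 ± 0.39, adjusted p = 6.48e-16). S1pr1, the exit receptor, had 7.74, 5.06 and 7.07 CPM in CD69-hi, against 425, 503 and 526 in CD69-lo and 862 in NP (-6.18 ± 0.26). Il7r, the survival receptor of resting T cells, had 4.22, 4.44 and 5.17 CPM in CD69-hi, against 73.7, 146 and 265 in CD69-lo and a mean of 451 in NP (-5.14 ± 0.40). For these 3 genes each CD69-lo library was above each CD69-hi library, and the CD69-lo libraries ranged most among themselves for Il7r and Klf2.

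Pik3ip1 (-5.91 ± 0.28), Txnip (-3.76 ± 0.22) and the stem-like factor Tcf7 (-1.46 ± 0.19) were lower in CD69-hi too. Id3, which blocks E proteins downstream of the TCR, went the other way, with 115, 83.8 and 92 CPM in CD69-hi and 8.5, 9.07 and 3.56 in CD69-lo (3.77 ± 0.34). Ccr7, a lymph node homing receptor, did not pass: it had 515, 438 and 494 CPM in CD69-hi and 450, 499 and 385 in CD69-lo. Its log2 fold change of 0.12 ± 0.23 (adjusted p = 0.676) was -0.11 with RLE size factors and passed as higher in CD69-hi, at 0.92, with the covariate.

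Cell division genes were higher in CD69-hi. All 25 mitosis genes were higher (median 3.60), and of 35 genes of DNA replication and S phase 34 were higher and none lower (median 3.35), against 29.1% of all genes. Thinned CD69-hi libraries, brought to the mean total of CD69-lo, gave 24 and 33. Cdk1, the kinase that starts mitosis, had 99.4, 78.9 and 82.9 CPM in CD69-hi, against 0.945, 1.62 and 1.02 in CD69-lo and a mean of 0.529 in NP (6.04 ± 0.53, adjusted p = 7.7e-15). Uhrf1, which copies DNA methylation at the fork, had 896, 761 and 769 CPM in CD69-hi, against 28.3, 15.6 and 35.1 in CD69-lo and 2.64 in NP (5.00 ± 0.31). Mki67 had 440, 283 and 353 CPM in CD69-hi, against 60.5, 32.4 and 54.4 in CD69-lo and 5.42 in NP (2.92 ± 0.44, adjusted p = 6.73e-07, and 4.94 with the covariate). The ribonucleotide reductase gene Rrm2 (4.72 ± 0.38), the chromatin assembly gene Chaf1a (4.96 ± 0.34), the spindle motor gene Kif11 (4.85 ± 0.46) and Ccnb1 (4.94 ± 0.62) followed. Cdk1 was at a few counts in each CD69-lo library, while Uhrf1 and Mki67 lay above the NP mean in all 3.

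Genes of growth were higher with them. All 36 ribosome biogenesis genes tested were higher in CD69-hi (median 3.03), and remained 36 without CD69-lo replicate 3, with RLE size factors and with the covariate. Over all genes 29.1% were higher. Ncl, the nucleolar protein nucleolin, had 6210, 5510 and 5820 CPM in CD69-hi, against 494, 565 and 626 in CD69-lo and a mean of 453 in NP (3.38 ± 0.20). Npm1 (3.30 ± 0.19), Mybbp1a (3.64 ± 0.16) and the ribosome assembly gene Nop16 (4.04 ± 0.27) were higher as well. The mitochondrial chaperone gene Hspd1 had 2510, 2310 and 2420 CPM in CD69-hi, against 111, 87.5 and 80.9 in CD69-lo (4.71 ± 0.24). Cad, which starts pyrimidine synthesis, had 1130, 1090 and 1020 CPM in CD69-hi, against 56.7, 54.4 and 48.8 in CD69-lo (4.34 ± 0.21). The NP means of Hspd1 and Cad, 76.9 and 55.4 CPM, were near those of CD69-lo.

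Metabolic genes were higher in CD69-hi to different degrees. The shares to set beside their counts are 29.1% higher and 32.5% lower over all genes tested. Of 22 glycolysis genes 17 were higher and 1 lower (median 1.86). Hk2, an inducible hexokinase, had 415, 395 and 403 CPM in CD69-hi, against 15.1, 2.27 and 9.16 in CD69-lo and 2.39 in NP (5.82 ± 0.49). Tpi1 was higher by 4.90 ± 0.26, Gapdh by 3.39 ± 0.23 and Pgk1 by 3.37 ± 0.22. The gene that was lower, the phosphofructokinase gene Pfkm, had 24.2, 13.2 and 14.3 CPM in CD69-hi and 57.6, 31.7 and 21.9 in CD69-lo (-1.05 ± 0.32), a call lost without CD69-lo replicate 1. Of 26 genes of amino acid uptake, the stress factor ATF4 and one-carbon metabolism 22 were higher and 1 lower (median 3.20). Asns, asparagine synthetase, had 146, 94.2 and 114 CPM in CD69-hi, against 0, 1.94 and 2.54 in CD69-lo (6.03 ± 0.60). Psat1 of serine synthesis (4.85 ± 0.30), Shmt2 of the mitochondrial folate cycle (4.03 ± 0.26) and the amino acid transporter gene Slc7a5 (3.90 ± 0.34) were higher too. Chac1, an ATF4 target, had 13.9 to 15.2 CPM in CD69-hi and no count in CD69-lo, at least 29.3-fold higher.

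Of 30 genes of cholesterol and fatty acid synthesis 26 were higher and 1 lower (median 1.57), among them Idi1 (3.30 ± 0.25), Scd2 (3.06 ± 0.25), Sqle (2.97 ± 0.21) and Fasn (2.81 ± 0.19). For this and the next 2 lists the shares over all genes were 29.1% higher and 32.5% lower. Of 26 nuclear genes of oxidative phosphorylation 25 were higher and none lower (median 1.32), and 17 with the covariate; Atp5b, a subunit of ATP synthase, was higher by 2.44 ± 0.17. Of the 13 genes encoded in mitochondria 8 were higher and none lower (median 0.58). That count was 4 with RLE size factors or DESeq2, 2 with CD69-hi libraries thinned and 5 without CD69-lo replicate 3, so most of these differences depend on scaling and depth. mt-Nd1 had 2600, 2200 and 2480 CPM in CD69-hi, against 741, 992 and 661 in CD69-lo (1.60 ± 0.22). mt-Co1 had 5100, 4340 and 5000 in CD69-hi and 3400, 4370 and 3100 in CD69-lo, with overlap (0.41 ± 0.20, adjusted p = 0.0659).

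Families of the protein-making and folding machinery, counted after their values had been seen, moved to the same side. All 8 subunits of the cytosolic chaperonin CCT were higher in CD69-hi (median 2.88), as were 17 of 18 cytosolic aminoacyl-tRNA synthetases (2.39), 73 of 77 mitochondrial ribosomal proteins (1.82) and 34 of 37 proteasome subunits (1.79). Of 81 cytosolic ribosomal proteins 54 were higher and 1 lower (0.72), against 29.1% and 32.5% of all genes. The 3 proteasome subunits that were lower are those of the interferon-inducible immunoproteasome. Psmb8 had 113, 106 and 130 CPM in CD69-hi, against 374, 346 and 250 in CD69-lo (-1.47 ± 0.19), Psmb9 was lower by -1.93 ± 0.30 and Psmb10 by -2.05 ± 0.24. The synthetase gene that was lower, Wars, is interferon-inducible as well (-0.66 ± 0.18, and -0.29 with the covariate, where the call was lost).

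**Figure D4:**
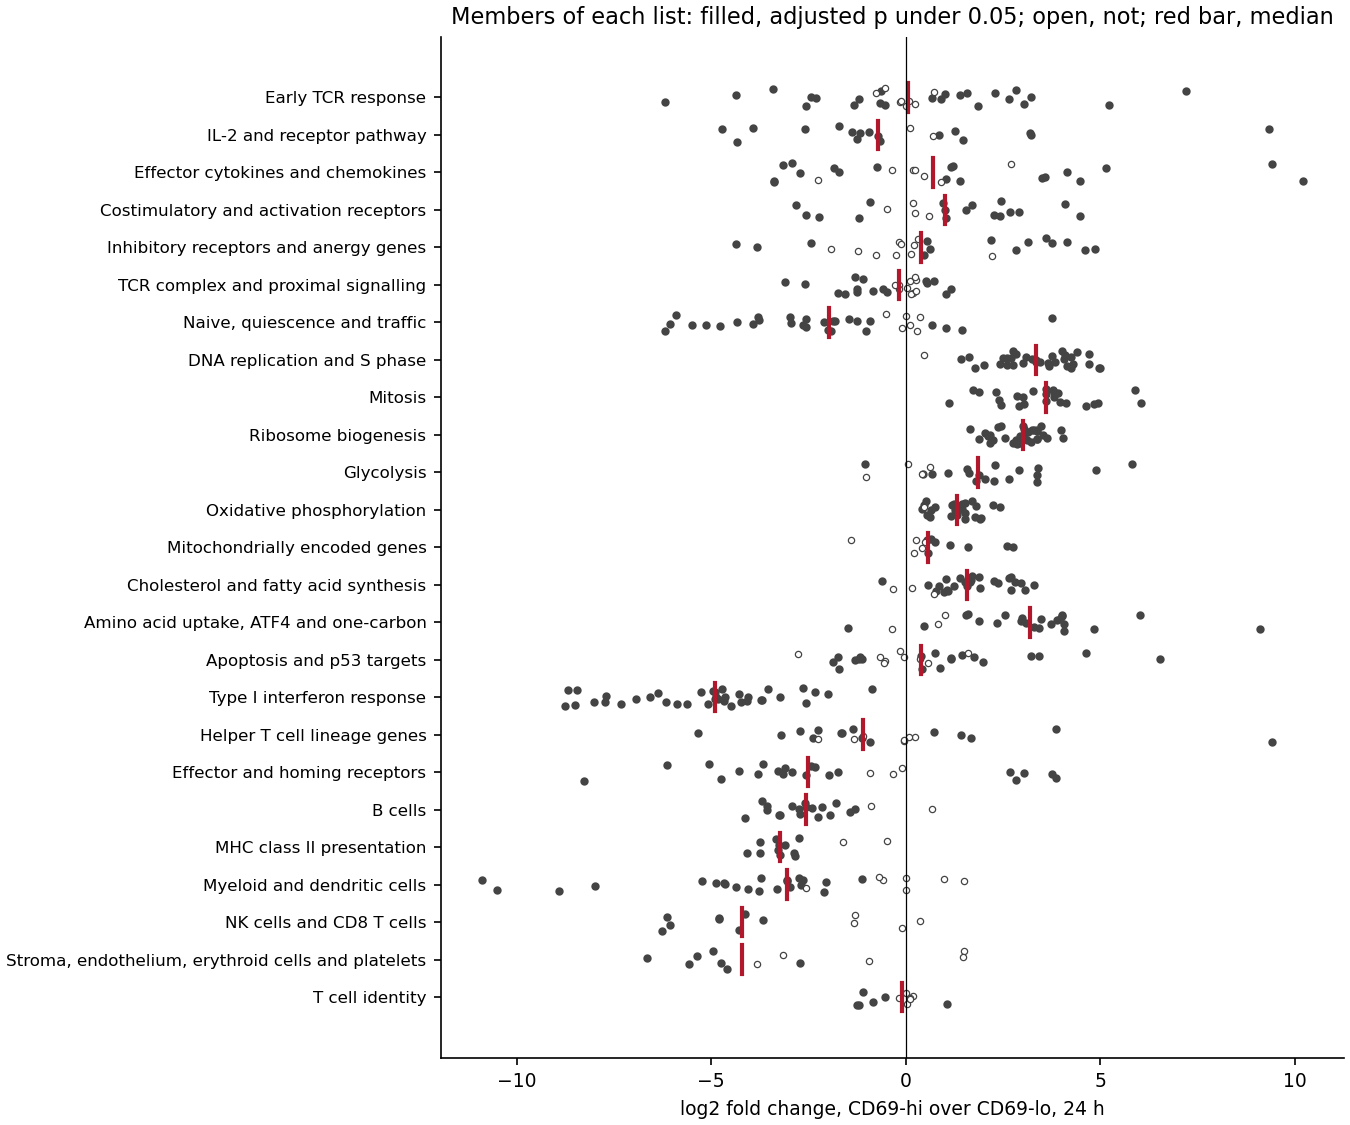
Log2 fold change of CD69-hi over CD69-lo for the members of 25 gene lists (each point a gene tested; filled, adjusted p under 0.05; red bar, list median). Division, ribosome and amino acid lists lie to the right, with medians of 3.03 to 3.60, and the type I interferon list to the left, with a median of -4.89.

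Interferon response genes showed the opposite pattern, with all members lower in CD69-hi. All 38 type I interferon response genes were lower (median -4.89, against 32.5% of all genes), and 37 of them without overlap. The count was 38 without CD69-lo replicate 3, with RLE size factors, with DESeq2, with CD69-hi thinned and with the covariate, and 37 or 38 in the other alternatives. In CD69-lo the mean of each of the 38 was also above that of NP. Ifit3, an antiviral effector (mm10 chromosome 19, 34583119 to 34588982), had 0.704, 0.613 and 1.36 CPM in CD69-hi, against 376, 440 and 338 in CD69-lo and 51.9 to 99.9 in NP (-8.69 ± 0.62, adjusted p = 3.15e-14). Oas2, which makes the activator of RNase L, had 0.563, 1.23 and 2.45 CPM in CD69-hi, against 563, 650 and 371 in CD69-lo and 75.8 to 113 in NP (-8.51 ± 0.63). Irf7, the factor that amplifies the response, had 1.27, 2.76 and 2.18 CPM in CD69-hi, against 456, 533 and 297 in CD69-lo and 101 to 148 in NP (-7.69 ± 0.47). In all 3 genes the order was CD69-hi, then NP, then CD69-lo, with no library out of place.

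Gbp4, a guanylate-binding protein that interferon gamma also induces, had 44.2, 60.8 and 133 CPM in CD69-hi, against 2050, 1870 and 2020 in CD69-lo (-4.64 ± 0.47). Gbp11 had 0, 0.153 and 0.272 CPM in CD69-hi, against 285, 245 and 119 in CD69-lo (-10.31 ± 0.77). Pydc4 (-8.72 ± 0.50) and Ifit1bl1 (-9.24 ± 0.48) were among the genes with the most negative differences. Of families counted after their values had been seen, 10 of 11 Gbp genes, 8 of 8 Oas and Oasl genes and 29 of 30 H2 histocompatibility genes were lower in CD69-hi, and none higher. Over all genes 32.5% were lower and 29.1% higher. The H2 count holds 10 class II genes, most of them also on the list of class II presentation above, of which 9 were lower, and 20 others, all lower. H2-Aa, a class II gene, was at 0.75 with the covariate, but it is itself part of that sum, so this value decides nothing. H2-K1, a class I gene, had 875, 869 and 989 CPM in CD69-hi, against 3060, 3370 and 1710 in CD69-lo (-1.57 ± 0.24). The peptide transporter gene Tap1 was lower by -1.77 ± 0.24. Members of the Gbp, Oas, Ifit and H2 families are close copies, so the share of reads given to each is uncertain. The part in this result of the RNA of other-cell marker genes, higher in CD69-lo, was not tested. The 38 calls held in the covariate fit, which tells the sort and that RNA only partly apart.

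Lineage and homing genes differed in both directions. Of 22 helper lineage genes tested 5 were higher in CD69-hi and 10 lower (median -1.10), against 29.1% and 32.5% of all genes. Tbx21, the T helper 1 factor T-bet, had 37.3, 43.7 and 101 CPM in CD69-hi, against 14.2, 29.5 and 9.67 in CD69-lo (1.69 ± 0.46, adjusted p = 0.00168, and 1.11 without CD69-hi replicate 3). Its target Cxcr3 had 16.3, 18.1 and 18.9 CPM in CD69-hi, against 2.83, 0.324 and 1.53 in CD69-lo (3.86 ± 0.65). Bcl6, of follicular helper cells, had 12, 17 and 14.4 CPM in CD69-hi, against 37.8, 73.9 and 87 in CD69-lo (-2.24 ± 0.24). Foxp3, of regulatory T cells, had at most 1.07 CPM in CD69-hi, against 9.45, 7.13 and 3.05 in CD69-lo (-3.19 ± 0.70). The interleukin-18 receptor gene Il18r1 was lower by -5.33 ± 0.26. Il4ra had 126, 136 and 146 CPM in CD69-hi, against 1300, 1120 and 276 in CD69-lo, so CD69-lo replicate 3 was again the one nearest to CD69-hi (-2.72 ± 0.32).

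Of 24 effector and homing receptor genes tested 5 were higher in CD69-hi and 16 lower (median -2.50), with 8 lower under the covariate. Over all genes the shares were 29.1% and 32.5%. Ccr9, the receptor for gut homing, had 0, 0.306 and 0.136 CPM in CD69-hi, against 39.7, 61.6 and 53.4 in CD69-lo and a mean of 30.4 in NP (-8.27 ± 0.47). Itgb7, an integrin of gut homing, was lower by -3.27 ± 0.24. Ccr8 was higher (3.77 ± 0.78), as was Ccr4 (3.05 ± 0.60, and 1.22 with the covariate, where the call was lost). Gzmb, the cytotoxic granzyme B, had 13.4, 6.9 and 18.4 CPM in CD69-hi, against 114, 35.3 and 194 in CD69-lo and no count in NP (-3.14 ± 0.73, adjusted p = 0.000564). That call was lost with the covariate, where the difference was -1.12. The summed NK and CD8 T cell genes were 81.8, 123 and 169 plain CPM in the same CD69-lo libraries. In NP, with no Gzmb count, they were 44.7 to 67.6. The source of the Gzmb RNA was not tested.

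Genes of cell death were mixed. Of 29 apoptosis and p53 target genes tested 13 were higher in CD69-hi and 7 lower (median 0.39), against 29.1% and 32.5% of all genes. The higher count was 8 when CD69-hi was thinned or the covariate added. Perp, a p53 target, was higher by 6.55 ± 0.91. Mcl1, a survival gene of the Bcl-2 family, had 484, 455 and 450 CPM in CD69-hi, against 1220, 1280 and 921 in CD69-lo (-1.30 ± 0.19), the reverse of Bcl2l1.

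Among the genes with the largest differences without overlap were several outside the lists. Bcat1, which starts the breakdown of branched-chain amino acids, had 403, 350 and 349 CPM in CD69-hi, against 0, 0.972 and 1.02 in CD69-lo (8.77 ± 0.45). The calcium sensor gene Ncs1 had 82.1, 80.8 and 90.3 CPM in CD69-hi, against 0, 0 and 0.509 in CD69-lo (8.79 ± 0.78). Ckap2 of the spindle was at least 48.7-fold higher in CD69-hi, Ccdc80 at least 35.9-fold, Utf1 at least 34.0-fold and the meiotic gene Mnd1 at least 20.2-fold, with no count of any of them in CD69-lo. On the other side, the pseudogene Hmgb1-ps8 was at least 359-fold lower in CD69-hi, though reads of such a copy are hard to tell from those of Hmgb1. The gene model Gm26583 was at least 115-fold lower and the channel gene Cnga1 at least 101-fold, a bound of 43.5-fold without CD69-lo replicate 3. Gm10800 was called lower (-9.98 ± 1.43). The size of its difference rested on the 1070 CPM of CD69-lo replicate 3 and was -4.46 without that library. Its call was lost with only the groups compared in the fit (-10.03) and with the covariate (-7.17).

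The contrast between the fractions was also tested against the same contrast at the earlier times, with no library shared. It differed between 24 h and 6 h for 4085 genes (23.7%), more positive at 24 h for 2617 (15.2%) and more negative for 1468 (8.53%). Between 24 h and 1 h it differed for 8007 genes (46.5%), 4491 (26.1%) more positive and 3516 (20.4%) more negative. With RLE size factors the splits were 1951 and 1857 against 6 h, and 3306 and 4492 against 1 h, so the balance of directions depends on the scaling.

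The contrasts of Nr4a1 and Nr4a3 turned over between 6 h and 24 h. Nr4a1 averaged 9570 CPM in CD69-hi and 6510 in CD69-lo at 1 h, 3970 and 1700 at 6 h, and 285 and 654 at 24 h. The log2 contrast, CD69-hi over CD69-lo, was 0.56, 1.22 and -1.20 at the 3 times, and at 24 h it differed from 6 h by -2.42 ± 0.72 (adjusted p = 0.0129) and from 1 h by -1.76 ± 0.66 (adjusted p = 0.0294). Nr4a3 had a contrast of 1.31 at 6 h and -0.64 at 24 h (difference -1.96 ± 0.43, adjusted p = 0.000756). Cd69 RNA averaged 1680 CPM in CD69-hi and 1120 in CD69-lo at 1 h, 1010 and 419 at 6 h, and 208 and 289 at 24 h. Its contrast at 24 h differed from that at 6 h by -1.74 ± 0.68, which did not pass (adjusted p = 0.0597). Fosb was level between the fractions at 1 h, at 708 CPM in CD69-hi and 742 in CD69-lo, and apart by 6 h, at 21 and 616. Irf4 kept a contrast of 2.66 at both 6 h and 24 h (difference 0.00 ± 0.33), against 1.38 at 1 h.

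Division genes were further apart at 24 h than at 6 h. Over all genes tested the contrast was more positive at 24 h than at 6 h for 15.2%, and than at 1 h for 26.1%. The contrast was more positive at 24 h than at 6 h for 33 of 35 replication genes (median contrast 3.35 at 24 h and 0.15 at 6 h) and 23 of 25 mitosis genes (3.60 and -0.36). Against 1 h the numbers were 31 of 35 and 19 of 25, with median contrasts of 0.04 and 0.47 at 1 h. Cdk1 had a contrast of 2.76 at 1 h, at means of 3.94 CPM in CD69-hi and 0.729 in CD69-lo, and Mki67 of 1.04, at 27.6 and 14.4. Uhrf1 averaged 14.1 CPM in CD69-hi and 9.12 in CD69-lo at 1 h, 12.4 and 11.1 at 6 h, and 809 and 26.3 at 24 h. Ribosome biogenesis genes were already apart at 6 h: 4 of 36 contrasts were more positive at 24 h than at 6 h (medians 3.03 and 2.82), and 36 of 36 than at 1 h (0.58). The medians of amino acid and one-carbon genes were alike at 24 h and 6 h too (3.20 and 3.08). Of these 26 genes 3 were more positive and 3 more negative than at 6 h, against 15.2% and 8.53% of all genes. Glycolysis genes lay between, with 16 of 22 more positive than at 6 h (1.86 and 0.88). Lag3 averaged 3.54 CPM in CD69-hi and 1.19 in CD69-lo at 1 h, 4.2 and 3.66 at 6 h, and 230 and 16.4 at 24 h. Its contrast at 24 h differed from that at 6 h by 3.57 ± 0.75 (adjusted p = 0.000507), while the difference from 1 h, 1.84 ± 0.94, did not pass (adjusted p = 0.107). Tnfrsf9 was further apart at 6 h, with 531 CPM in CD69-hi and 10.5 in CD69-lo at 6 h and 60.7 and 12.2 at 24 h (difference -3.19 ± 0.84, adjusted p = 0.00487).

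Interferon response genes were further apart at 24 h than before. The contrast was more negative at 24 h than at 6 h for 30 of 38 genes and than at 1 h for 36 of 38, with medians of -0.22 at 1 h, -2.83 at 6 h and -4.89 at 24 h. The shares over all genes were 8.53% and 20.4%. Ifit3 averaged 35.5 CPM in CD69-hi, 31.9 in CD69-lo and 41.9 in NP at 1 h, 6.87, 161 and 181 at 6 h, and 0.892, 385 and 68.9 at 24 h. The CD69-hi mean thus went down over the times as the CD69-lo mean went up, and CD69-lo stood above NP at 24 h but not at 6 h. In the same libraries B cell genes had a median contrast of 0.66 at 1 h, 0.08 at 6 h and -2.56 at 24 h, and MHC class II genes of 0.66, -0.29 and -3.22. Their part in the interferon result was not tested.

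**Figure D5:**
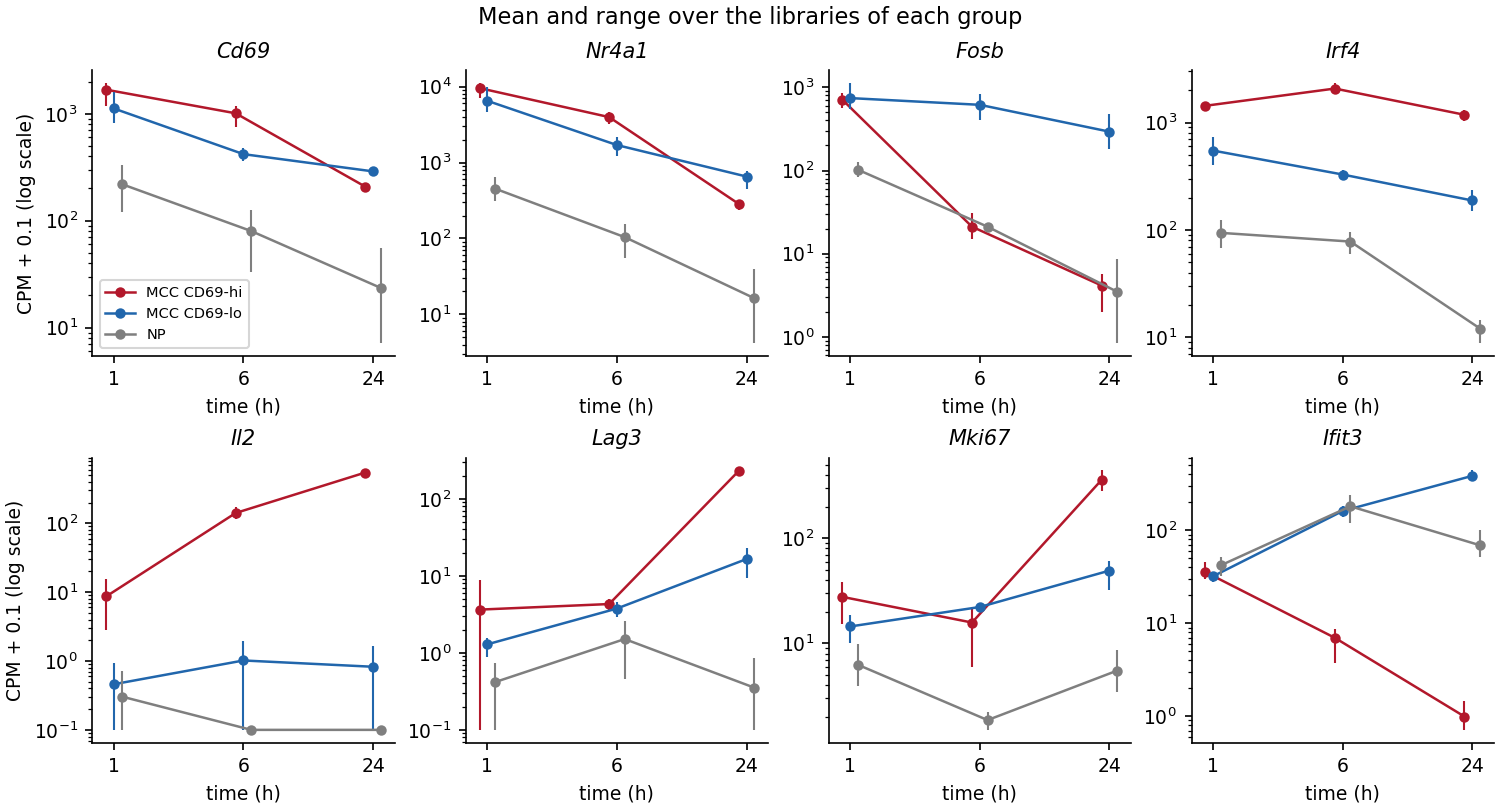
Mean CPM (plus 0.1, log axis) with the range over libraries of 8 genes in MCC CD69-hi, MCC CD69-lo and NP cells at 1, 6 and 24 h. Nr4a1 and Cd69 means are higher in CD69-hi at 1 and 6 h and lower at 24 h, Lag3 and Mki67 are further apart at 24 h than at 6 h, and Ifit3 goes down in CD69-hi and up in CD69-lo.

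The levels in CD69-hi were set beside those of the other CD69-hi cells of 24 h, which had been given MCC+GP. Il2 averaged 546 ± 35.2 CPM (SD, n = 3) with MCC alone and 499 with MCC+GP (492 to 504). Fosb averaged 4.04 CPM with MCC alone and 3.23 with MCC+GP, Klf2 5.74 and 5.63, Cdk1 87.1 and 104, Ifit3 0.892 and 0.699, and Irf4 1180 and 1080. For Nr4a1 the means were 285 CPM with MCC alone and 255 with MCC+GP, and for Cd69 208 and 171. These pairs are given as values, with no test.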

How the data were processed

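Libraries were made from poly-adenylated RNA and read from both ends, per the labels' protocols. Per the submitters' processing notes, reads were handled with bcl2fastq 2.20, STAR 2.6.1c on mm10 and HTSeq 0.9.1. The deposited raw counts per gene were used, in 34923 features named by symbol, of which 38 share a symbol with another. Gene positions are from RefSeq for GRCm38.p6, matched by symbol.

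All 51 libraries entered 1 model with a coefficient per group: TMM scaling, filterByExpr by group (17211 genes), robust quasi-likelihood fit, two-sided F test, Benjamini-Hochberg adjustment over all genes tested at 0.05 (edgeR 4.0.16, limma 3.58.1, R 4.3.3). The filter can pass a gene through 1 high group. A gene with no count in a fraction is given as a fold against 3 counts over its 3 libraries, which covers counting error only. The SE was worked back from the test, as the size of the log2 fold change over the square root of F. It is therefore approximate, most of all for genes with few counts in a fraction. Among 3126 genes at 50 CPM or more in both fractions the SE had a median of 0.17. On simulated counts for 17211 genes, of which 200 were changed, this comparison recovered 38% of log2 changes of 1 and 78% of changes of 2, with 4.9% false calls. In the data 61.7% of genes were called, and the simulation held no library that stood apart. These rates therefore need not hold for the comparison itself. The contrast was also tested against those at 6 h and 1 h.

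Named genes were a panel of 15, the largest differences without overlap between libraries, and up to 4 members a direction of each list; other list members were chosen for their role, and Psmb8, Psmb9, Psmb10, Wars, Tap1 and H2-K1 after their values were seen. The comparison, genes and lists were chosen with earlier results of these data known. Lists are described by counts and medians, with no set test. Alternatives were RLE size factors, no filter, DESeq2 1.42.0, only the groups compared, omission of the 3 shallow MCC+GP CD69-lo 24 h libraries, thinned CD69-hi libraries, a block for the plate round (read from the wells in the labels) and omission of each library in turn. The labels give no replicate numbers, so replicate numbers here are names only. A covariate for RNA of other cells was added after the data were seen. Results for some genes are not reported here.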

Additional observations from a re-analysis of the deposited data

Results flagged for a closer look

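The contrast of CD69-hi over CD69-lo at 24 h differed from the same contrast at 6 h for 4085 genes and from that at 1 h for 8007, by edgeR's quasi-likelihood test of the difference. The genes given here were picked out because that test passed for them. Values are differences of log2 contrasts, 24 h minus the earlier time.

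Several early TCR genes had more negative contrasts at 24 h, though over the list of 32 the test passed for 11 as more negative and 8 as more positive against 1 h, and for 6 and 3 against 6 h. The shares over all genes were 20.4% and 26.1% against 1 h, and 8.53% and 15.2% against 6 h. Against 1 h the difference was -6.11 for Fosb, -3.45 for Egr1, -3.12 for Egr3, -1.76 for Nr4a1 and -1.64 for Nr4a3. Against 6 h it was -2.42 for Nr4a1, -1.96 for Nr4a3 and -3.19 for Tnfrsf9, which encodes 4-1BB. Klf2, the quiescence factor, differed from 1 h by -4.52.

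Interferon response genes had more negative contrasts too. Against 1 h the difference was -8.89 for Ifit3, -7.97 for Oas2 and -7.11 for Irf7. Against 6 h it was -4.13 for Ifit3, -5.00 for Oas2 and -4.19 for Irf7.

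Other genes had more positive contrasts at 24 h. Against 1 h the difference was 5.09 for Il2, 1.21 for Il2ra, 1.28 for Irf4, 0.79 for Myc and 3.49 for Cd5. Over the 19 genes of the IL-2 pathway the test passed for 5 as more positive and 9 as more negative against 1 h. The shares over all genes were 26.1% and 20.4%. Cdk1 differed by 6.80 from 6 h and 3.28 from 1 h, Uhrf1 by 4.84 and 4.38, and Mki67 by 3.42 and 1.88. Lag3 differed from 6 h by 3.57.

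The fitted differences of Il3, 10.70 against 6 h and 10.11 against 1 h, and of Gzmb, -8.58 against 6 h, rest on a group with no count (CD69-lo at 24 h for Il3, CD69-lo at 6 h for Gzmb), so their size depends on the prior count.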

How the results depend on the processing

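Of 2142 values of the 153 described genes under the alternatives, 2071 kept their direction and side of the threshold, 46 lost the call, 14 gained one and 11 changed sign. With the other-cell covariate the calls at 24 h were 6949, of which 3098 were lower in CD69-hi. Those of the difference from 1 h were 4905, of which 1749 were more negative. The values that changed sign in that fit were 4.64 for Il22, 0.41 for Ifng, -0.41 for Cd3e and 0.75 for H2-Aa, itself part of the covariate. Cd3e was also at -0.04 with RLE size factors, -0.03 with DESeq2 and -0.04 with CD69-hi thinned, and Ccr7 at -0.11, -0.11 and -0.09 in these 3. With 1 library left out Cd4 ranged from -0.34 to 0.09. Against 6 h, more positive contrasts numbered 1610 with CD69-hi thinned, and more negative ones 2209 with DESeq2 and 884 (without MCC CD69-lo 6 h replicate 2) to 1423 with 1 library left out. With the plate-round block there were 9952 calls at 24 h, 4978 higher and 4974 lower, 4272 against 6 h and 8249 against 1 h; the wells, not a stated pairing, give that block. The causes were not tested. Among the 6 libraries compared at 24 h, those of CD69-lo were the shallowest and the least alike. Over their group 3 counts stand for 0.491 CPM, so absence from CD69-lo is known only to that level.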
